A study of Mus musculus with 150 samples.

Results

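The Rex1 deletion clones D1 and E3 are mouse embryonic stem cells in which CRISPR cutting removed chr8:43302260-43332339 (mm10), a 30.1 kb interval that holds the promoter of Zfp42. They were chosen by their labels and make up 4 of the 150 samples of the series, an early and a late S-phase fraction for each clone. The cells are cas/129 hybrids, so every chromosome 8 is present as a CAST copy and a 129 copy, and the svim columns of the deposited table were taken as the 129 copy. The question was how the svim copy replicated relative to the CAST copy of the same clone, within 42-45 Mb and along the whole chromosome. A difference taken within a clone leaves out whatever both copies of a library share.

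Other chromosome 8 clones of the same hybrid background stood beside them. The RexTrim clones D3 and D8 carry the same Rex1 deletion and a second deletion at chr8:43176771-43181949, 5.2 kb long and 120.3 kb to the left of the first. The Trim clones D9 and E9 carry only that second deletion. All 6 clones were kept as mouse embryonic stem cells in medium with 2i and LIF, labelled with a BrdU pulse and sorted by DNA content into early and late S phase. BrdU-containing DNA was then immunoprecipitated and sequenced, an assay called Repli-seq. The labels do not say which copy was edited, and no unedited chromosome 8 profile is listed among the samples used here. A difference between svim and CAST in the Rex1 clones alone therefore cannot be told apart from a difference between the strains.

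Replication timing is the order in which chromosome segments are copied during S phase. It is organised in domains that often span several genes, and in stem cells the domains with active pluripotency genes tend to be copied early. Zfp42 encodes Rex1, a zinc finger protein related to YY1 and a marker of naive pluripotency, and its locus is known to replicate early in stem cells and late after differentiation. Its neighbours are Triml1 and Triml2, genes related to the tripartite motif (TRIM) family, on the left and a cluster of testis ADAM genes, which encode membrane proteins of the metalloprotease-disintegrin family, on the right.

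A promoter that the Rex1 deletion removes and one that it leaves in place are shown here, since the genotypes differ in which is removed. RefSeq (GRCm38.p6) places the Zfp42 start inside the Rex1 deletion and the Triml2 start inside the interval removed in the RexTrim and Trim clones. The 250 bases before each start are given, with the octamer ATTTGCAT, the site that POU factors such as Oct4 recognise, in capitals. Zfp42 lies at chr8:43307010-43307259 on the minus strand and Triml2 at chr8:43180286-43180535 on the plus strand.
Zfp42 promoter: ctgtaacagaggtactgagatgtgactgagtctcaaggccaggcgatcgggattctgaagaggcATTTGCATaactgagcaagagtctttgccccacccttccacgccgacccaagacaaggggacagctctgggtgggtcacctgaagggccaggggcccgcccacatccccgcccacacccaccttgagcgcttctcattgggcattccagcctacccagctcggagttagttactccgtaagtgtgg
Triml2 promoter: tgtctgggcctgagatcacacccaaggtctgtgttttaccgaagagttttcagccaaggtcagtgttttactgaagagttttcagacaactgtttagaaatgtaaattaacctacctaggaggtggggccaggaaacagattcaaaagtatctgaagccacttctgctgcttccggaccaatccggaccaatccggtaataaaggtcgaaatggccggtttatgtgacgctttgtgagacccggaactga
The octamer stood once in the Zfp42 window, 186 bases before the start, and on neither strand of the Triml2 window. Of the 32851 promoters in the table, 526 (1.6%) held it on either strand in the same 250 bases. A match describes letters only and was not tested as a site. The Rex1 deletion thus takes the Zfp42 promoter with 4750 bases (39.8%) of the gene and leaves the Triml2 promoter.

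The table gave a score every 5 kb. A higher score was taken as earlier replication, the usual direction for such profiles, and the gene-dense stretch around Calr and Junb scored high on both copies. Every column had an interquartile range of 4.60, and no label or header gives the formula of the score, so a difference is stated in score units and not as a fold. The number of reads behind a score is unknown. The profiles are smooth, so neighbouring positions share information and do not count as independent measurements. Of 25880 positions in the table, 25216 had a value in all 12 allele columns outside both deletions and were used throughout. Inside the Rex1 deletion the svim column was blank at 6 of 6 positions in D1 and in E3, while CAST kept values between 2.34 and 2.63 in D1 and between 2.30 and 2.33 in E3. Both RexTrim clones were also blank there on svim, and neither Trim clone was. At the 1 position inside the Trim deletion, svim was blank in all 4 RexTrim and Trim clones, and CAST was blank in RexTrim D8 alone. Neither copy was blank there in the Rex1 clones. Outside 42-45 Mb the median score of D1 was -1.001 on svim and -1.19 on CAST, below the -0.364 and -0.506 of E3. The median of D1 was thus lower than that of E3 on both copies, while the medians within a clone stayed closer. The quartiles of whole columns differed less between the clones. The lower quartile was -2.40 on svim and -2.32 on CAST in D1, and -2.31 on both copies in E3. The upper quartile was 2.20 on svim and 2.28 on CAST in D1, and 2.29 on svim and 2.28 on CAST in E3.

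Around the deletion, the svim copy of the Rex1 clones replicated later than the CAST copy. Over the 100 kb on either side of the deletion, 40 positions at chr8:43202260-43432339, svim averaged -0.676 in D1 and -0.999 in E3. CAST averaged 2.16 in D1 and 2.27 in E3 over the same positions. The copies did not overlap in either clone, and the CAST values of the clones lay closer together than their svim values. Within its own column, svim stood at percentile 54.0 in D1 and 44.9 in E3, and CAST at 73.8 in D1 and 74.9 in E3. The svim copy was thus near the middle of the timing range of chromosome 8 and the CAST copy in its earlier part. The difference svim minus CAST was -2.84 in D1 and -3.27 in E3, a mean of -3.06 ± 0.305 (SD, n = 2). In limma, fitted on all 6 clones, it differed from 0 with a standard error of 0.269, a 95% interval from -3.65 to -2.46 and an adjusted p of 0.000119.

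Averaged over all 593 positions of 42-45 Mb, svim minus CAST was -0.691 in D1 and -0.746 in E3 (adjusted p = 0.0303 in limma). This mean lost its call in 4 fits that left out 1 clone. Its adjusted p was 0.191 without D1, 0.232 without E3 and 0.0638 without RexTrim D3 or without RexTrim D8. Over the wider region svim averaged -2.09 in D1 and -1.90 in E3, at percentiles 35.6 and 32.6 of its columns. CAST averaged -1.40 in D1 and -1.16 in E3, at percentiles 48.4 and 44.3, near the middle of the range.

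**Figure D1:**
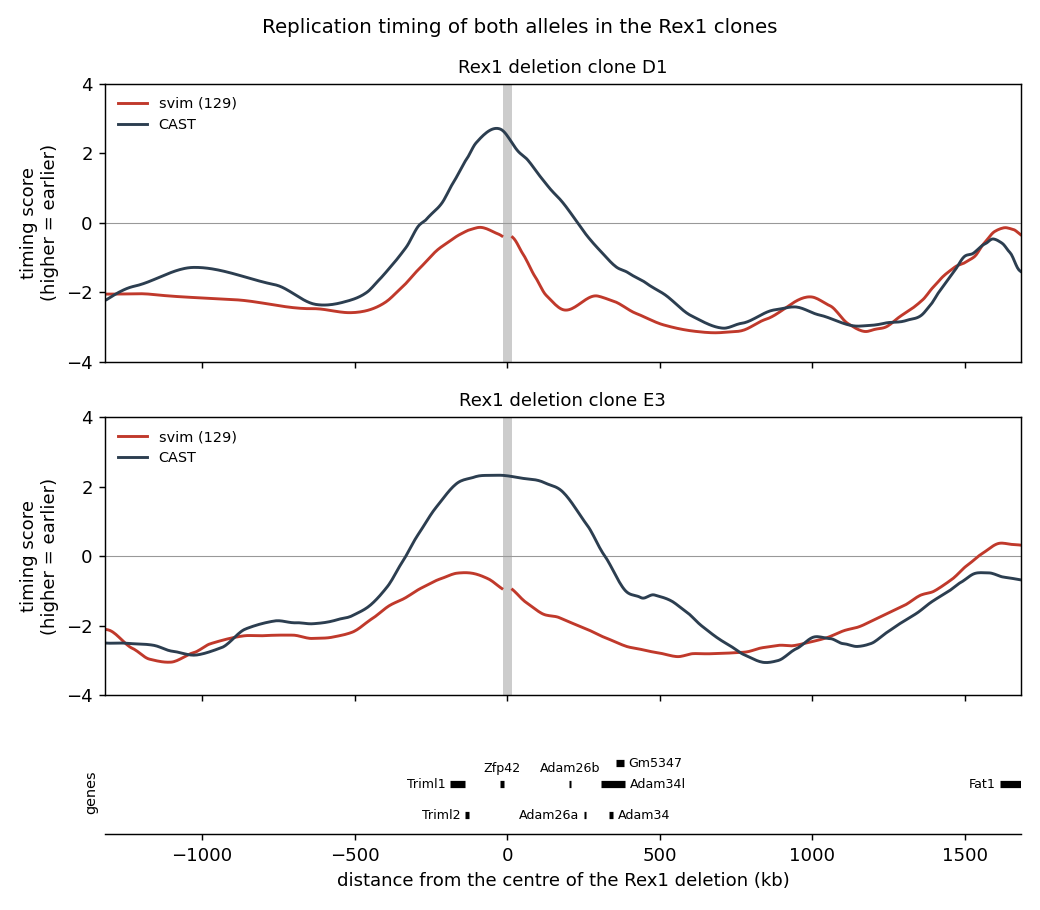
Timing score (y axis, score units, higher is earlier) of the svim and CAST copies in Rex1 clones D1 and E3 against distance in kb from the centre of the Rex1 deletion (grey band). CAST peaks at 2.71 in D1 and 2.33 in E3 close to the deletion, while svim stays below 0 there and joins CAST on either side.

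The early peak that CAST showed at the locus had a low counterpart on svim. Between 43.0 and 43.6 Mb, CAST reached its highest score at chr8:43285000 in D1 (2.71) and at chr8:43290000 in E3 (2.33), 17.3 kb and 12.3 kb to the left of the deletion. On svim the highest score was -0.137 in D1, 72.3 kb to the left of the deletion, and -0.474 in E3, 127.3 kb to the left of it. The svim maximum of E3 thus lay in Triml1 next to the start of Triml2, and that of D1 between Triml2 and Zfp42. The 1 position inside the Trim deletion, next to the maximum of E3, was left out of this search in all clones. The exact place of that maximum could therefore differ. No svim position of the 114 used between 43.0 and 43.6 Mb was above 0 in either clone. On CAST, 95 of them were above 0 in D1 and 114 in E3.

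The delay of svim relative to CAST, and the level of svim itself, were uneven about the deletion. In the first 50 kb, svim scored -0.288 in D1 and -0.784 in E3 on the left, and -0.728 in D1 and -1.15 in E3 on the right. Between 100 and 250 kb out, svim scored -0.580 in D1 and -0.593 in E3 on the left, against -2.34 in D1 and -1.86 in E3 on the right. The left side, which holds Triml1 and Triml2, was earlier on svim in both Rex1 clones. This direction was not particular to them. In the outer bin svim was also higher on the left in RexTrim D3 (-2.51 against -2.95), RexTrim D8 (-2.85 against -3.13) and Trim D9 (1.10 against 0.971). Trim E9 went the other way (1.41 on the left against 1.66 on the right). CAST in that outer bin scored 0.966 in D1 and 1.78 in E3 on the left, against 0.449 in D1 and 1.66 in E3 on the right. The largest allelic difference lay to the right in both clones, at -3.21 in D1, 107.7 kb beyond the deletion, and at -3.80 in E3, 102.7 kb beyond it. At that point svim was -2.04 in D1 and -1.66 in E3, and CAST was 1.17 in D1 and 2.13 in E3.

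The delay faded within about a megabase. Between 250 and 500 kb out, svim minus CAST was -0.832 in D1 and -0.851 in E3 on the left, and -1.11 in D1 and -1.91 in E3 on the right. Between 500 and 1000 kb it was -0.516 in D1 and -0.238 in E3 on the left, and -0.184 in D1 and -0.310 in E3 on the right. E3 had the larger delay of the 2 clones on the right in both of these bins. The stretch with a difference below -1 was 795 kb long in D1 and 960 kb in E3, and below -2 it was 380 kb in D1 and 590 kb in E3. No position of the chromosome outside 42-45 Mb had a difference as low as the minimum of D1 or of E3 in that clone.

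In the fit over 50 kb windows, 19 of the 59 tested windows of 42-45 Mb were called later on svim (adjusted p under 0.05 in limma), against 7.22% of all 2521 windows of the chromosome. They formed 1 run across the deletion, chr8:42900001-43900000, reaching 402.3 kb to the left and 567.7 kb to the right. The window that holds most of the deletion had too few usable positions to be tested. The lowest window was chr8:43400001-43450000, at -3.15 in D1 and -3.77 in E3 (adjusted p = 2.82e-05). Only 1 window of the region was called earlier on svim, chr8:44950001-45000000 in Fat1, against 6.31% of all windows. The length of the run depended on the clones, since 350 kb remained called without E3 and 700 kb without D1.

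Most windows with a large delay of svim in both clones lay at the deletion. Windows in which svim was later than CAST by at least 2 in both clones numbered 7 of 2521 (0.278%), and 6 of them lay in the run. Those later by at least 3 in both clones numbered 2, and both lay in the run. At a difference of at least 1 in both clones, 15 of 89 windows lay in the run and 74 outside 42-45 Mb. The windows earlier on svim by at least 2 in both clones numbered 9, none of them in 42-45 Mb.

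**Figure D2:**
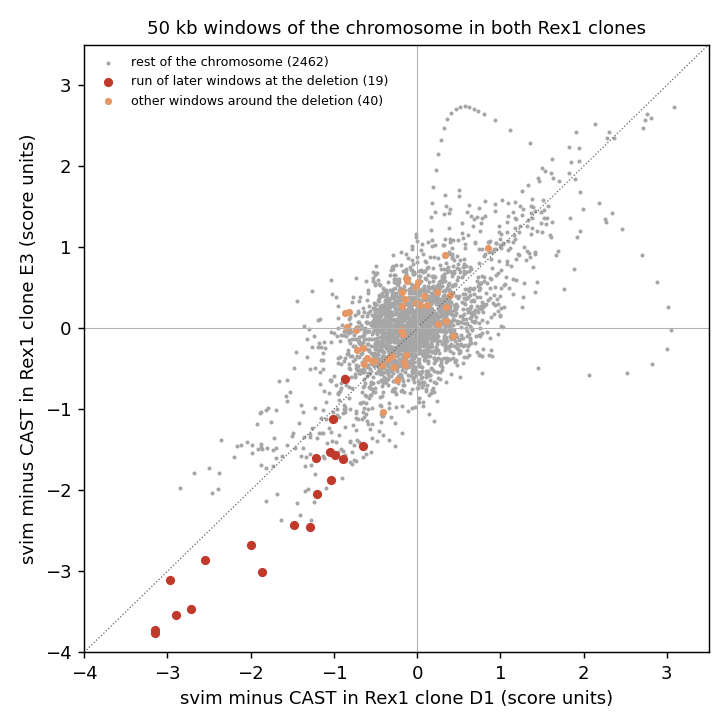
Each point is a 50 kb window, with svim minus CAST in Rex1 clone D1 on the x axis and in Rex1 clone E3 on the y axis (score units), the dotted line marking equal values. The 19 windows of the run at the deletion reach from the main cloud to the lower left corner, where the lowest window stands at -3.15 in D1 and -3.77 in E3.

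The Trim clones keep the Rex1 interval, and the difference between Rex1 and Trim was tested directly. Over the same 40 positions svim scored -0.676 and -0.999 in Rex1 D1 and E3, against 1.87 and 1.69 in Trim D9 and E9. CAST scored 2.16 and 2.27 in Rex1 D1 and E3, against 1.05 and 1.95 in Trim D9 and E9. Rex1 minus Trim was -2.62 on svim and 0.719 on CAST in these means. The difference on CAST was not shared by both Trim clones when ranked within their own columns. There CAST stood at percentile 74.3 in Trim E9, between Rex1 D1 at 73.8 and Rex1 E3 at 74.9, and at 58.6 in Trim D9. Svim minus CAST was -2.84 and -3.27 in Rex1 D1 and E3, against 0.815 and -0.255 in Trim D9 and E9. The Trim clones lay on either side of 0, and neither reached the Rex1 values. Rex1 minus Trim was -3.34 with a standard error of 0.380 and a 95% interval from -4.18 to -2.49 (adjusted p = 0.00273 in limma). The call was lost without Rex1 E3 (-3.12, adjusted p = 0.0925) and after quantile normalization (-2.86, adjusted p = 0.102). An exact two-sided permutation test of 2 against 2 clones gave p = 0.333, the smallest it allows.

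Over 42-45 Mb, Rex1 minus Trim was -0.949, with -0.691 and -0.746 in Rex1 D1 and E3 against 0.237 and 0.225 in Trim D9 and E9. The groups did not overlap, but the adjusted p of 0.212 missed the threshold. By windows, 10 of 59 in 42-45 Mb were called lower in Rex1 than in Trim, against 0.476% of all windows (12 of 2521). Of these, 9 formed a run at chr8:43200001-43700000, reaching 102.3 kb to the left and 367.7 kb to the right of the deletion, and the other was chr8:43000001-43050000. In the lowest window, chr8:43400001-43450000, Rex1 minus Trim was -3.96 (adjusted p = 0.000231). The 13 windows called in either direction on the chromosome (0.516%; 1 of them higher in Rex1, 0.0397%) became 62 without Trim E9. They became 7 without Rex1 D1 and 5 without Rex1 E3, RexTrim D3 or RexTrim D8. In 37 of the 59 windows both Rex1 clones lay below both Trim clones, against 23.6% of all windows. Far from the locus Trim D9 had lower correlations with the other clones in svim minus CAST over 2462 windows, between 0.28 and 0.45. Pairs of other clones ranged from 0.56 to 0.71. Trim D9 also had the largest standard deviation of svim minus CAST over positions, 0.807 against 0.625 to 0.682 in the other clones. Agreement in sign and the median gap did not set Trim D9 apart. Its pairs had the same sign in 61.3% to 66.8% of these windows, against 61.3% to 65.4% in other pairs. The median absolute gap was 0.31 to 0.38 in its pairs, against 0.29 to 0.37 in other pairs.

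**Figure D3:**
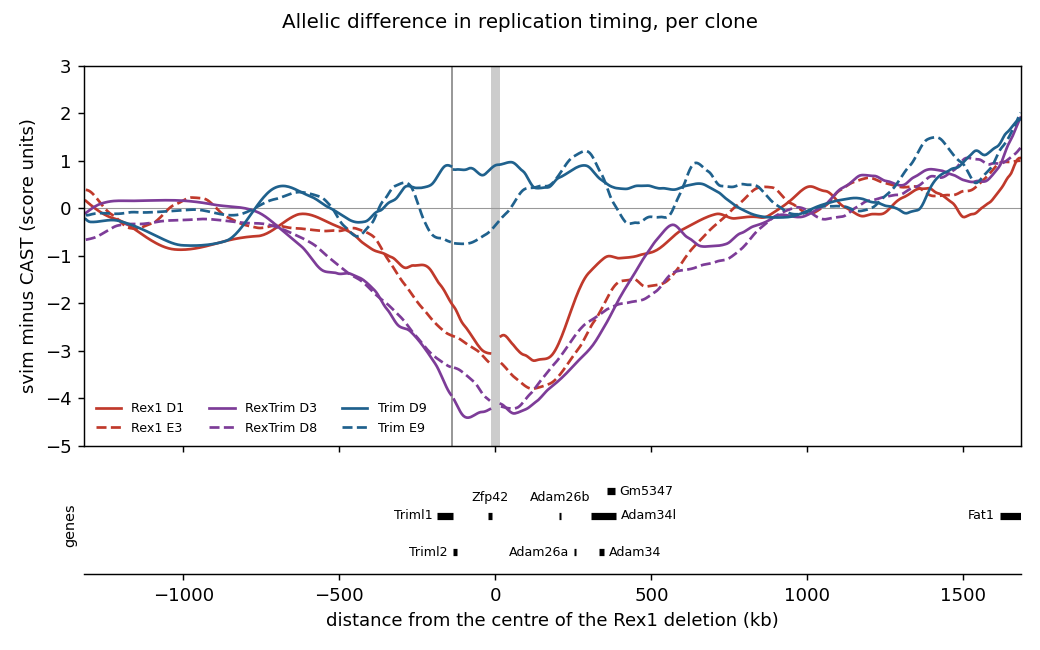
Svim minus CAST (y axis, score units) of the 2 Rex1, 2 RexTrim and 2 Trim clones against distance in kb from the centre of the Rex1 deletion (wide grey band; the narrow line marks the Trim deletion). The Rex1 clones reach -3.21 in D1 and -3.80 in E3 to the right of the deletion, the RexTrim clones reach -4.41 in D3 and -4.21 in D8, and the Trim clones lie on either side of 0.

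The RexTrim clones allowed the Rex1 deletion to be seen with and without the Triml promoter interval. Svim scored -0.676 and -0.999 in Rex1 D1 and E3 over the 100 kb on either side, against -2.65 and -3.00 in RexTrim D3 and D8. CAST scored 2.16 and 2.27 in Rex1 D1 and E3, against 1.63 and 0.925 in RexTrim D3 and D8. Both copies were thus earlier in the Rex1 clones, and neither copy overlapped between the genotypes. RexTrim D8, with the lowest CAST value, is the clone in which CAST was also blank at the Trim position. Svim minus CAST was -2.84 and -3.27 in Rex1 D1 and E3, against -4.28 and -3.92 in RexTrim D3 and D8. Rex1 minus RexTrim was 1.05, with a standard error of 0.380 and a 95% interval from 0.199 to 1.89. It was 1.23 without RexTrim D8 (adjusted p = 0.875) and 0.867 without RexTrim D3 (adjusted p = 0.971). With all clones it did not pass the threshold over all windows (adjusted p = 0.505, unadjusted p = 0.0205 in limma), and the exact permutation p was 0.333, the smallest possible.

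No window of the chromosome was called between Rex1 and RexTrim in limma (0%). At an unadjusted p under 0.05 there were 214 of 2521, and 15 of the 59 in 42-45 Mb, all higher in Rex1. In 26 of the 59 windows both Rex1 clones lay above both RexTrim clones, against 15.8% of all windows. In 9 they lay below both, against 24.8% of all windows. The low svim maximum of the range around the deletion described above was -0.137 in Rex1 D1 and -0.474 in Rex1 E3, at percentiles 58.2 and 50.02 of their columns. It lay between Triml2 and Zfp42 in D1, and in Triml1 next to the start of Triml2 in E3. The highest svim score in the same range was -2.50 in RexTrim D3 and -2.84 in RexTrim D8, at percentiles 28.8 and 20.5, and that of D8 stood at the edge of the range. The genotypes thus did not overlap in score or in rank. These maxima are a description and were not tested.

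**Figure D4:**
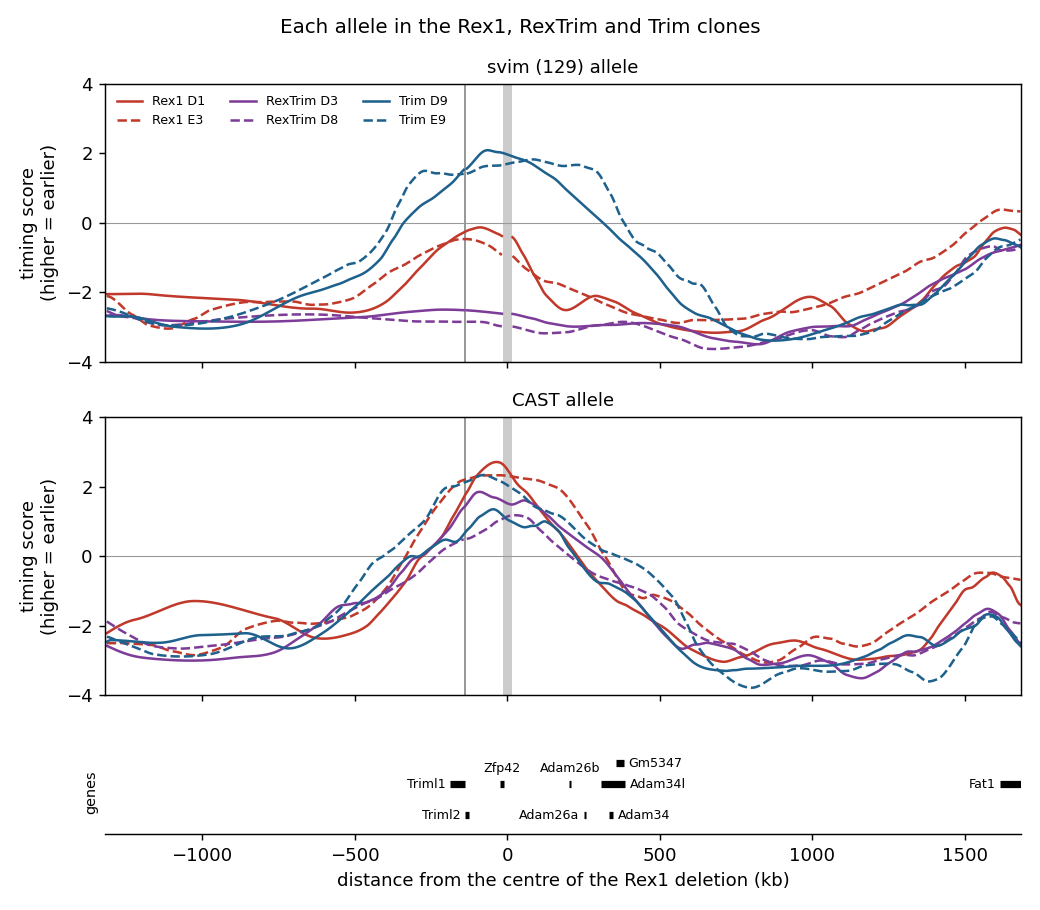
Timing score (y axis, score units, higher is earlier) of the svim copy (upper panel) and the CAST copy (lower panel) in all 6 clones against distance in kb from the centre of the Rex1 deletion (wide grey band; narrow line, Trim deletion). On svim beside the deletion the Rex1 clones, at -0.676 and -0.999, lie between the RexTrim clones, at -2.65 and -3.00, and the Trim clones, at 1.87 and 1.69.

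Gene values, the mean over the usable positions of each gene body, come from the same positions as the windows and are no separate support. Of the 23 genes tested in 42-45 Mb, 14 were later on svim in the Rex1 clones, against 6.06% of all 2375 genes of the chromosome, and 1 was earlier, against 5.09%. In either direction 265 genes (11.2%) were called. That count was 11 without Rex1 D1, 44 without Rex1 E3, 176 without RexTrim D3 or RexTrim D8 and 175 after quantile normalization. Of the 9 protein-coding genes, 8 were later and Fat1 was earlier. Their median was -2.16, beside -0.00690 over all genes.

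At Zfp42 itself (chr8:43295067-43307009) only 1 usable position remained beside the deletion. There svim was -0.386 in D1 and -0.930 in E3, and CAST was 2.67 in D1 and 2.33 in E3. The difference of -3.16 passed the test (adjusted p = 0.00215). The svim scores of both clones lay below both CAST scores by more than the clones differed. Rex1 minus Trim was -3.32 at this position (adjusted p = 0.0827), a value that did not pass.

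Triml1 and Triml2 encode proteins related to the TRIM family, expressed in early mouse embryos. Their gene bodies end 121.8 kb and 108.4 kb to the left of the Rex1 deletion. At Triml1 svim was -0.399 in D1 and -0.497 in E3, and CAST was 1.34 in D1 and 2.08 in E3. At Triml2 svim was -0.230 in D1 and -0.476 in E3, and CAST was 1.87 in D1 and 2.23 in E3. Triml2 had the svim score nearest to 0 among the 8 later genes in both clones. The svim minus CAST means were -2.16 at Triml1 (adjusted p = 0.0117) and -2.40 at Triml2 (adjusted p = 0.00833). Compared with Trim, the differences were -2.24 at Triml1 and -2.44 at Triml2 (adjusted p = 0.244 and 0.229). The Trim clones were themselves apart at Triml2, with 0.813 in D9 and -0.739 in E9.

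The testis ADAM cluster begins 187.5 kb to the right of the deletion, at Adam26b, and Gm5347 within it begins 341.3 kb away. Adam26b had svim scores of -2.50 in D1 and -1.90 in E3, and CAST scores of 0.312 in D1 and 1.62 in E3. Its svim minus CAST mean of -3.16 was the lowest of the 9 protein-coding genes (adjusted p = 0.00118). Rex1 minus Trim was -3.84 at Adam26b, with -2.81 and -3.51 in Rex1 D1 and E3 against 0.646 and 0.715 in Trim D9 and E9. It was the only gene of 2375 called in that comparison (0.0421%; adjusted p = 0.0164 in limma, with 226 at an unadjusted p under 0.05). Its adjusted p was 0.0864 without Rex1 D1, 0.228 without Rex1 E3 and 0.102 without RexTrim D3 or RexTrim D8, so that call rested on all of these clones.

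Adam26a, next along the chromosome, had svim minus CAST of -1.93 in D1 and -3.06 in E3 (adjusted p = 0.00352). At Adam34l it was -1.11 in D1 and -2.05 in E3, and at Adam34 -1.08 in D1 and -2.09 in E3. Gm5347 had -1.01 in D1 and -1.78 in E3 (adjusted p = 0.00896). RefSeq places Adam34 and Gm5347 inside the span of Adam34l, so the 3 genes share positions. E3 had the larger delay at all of these genes, and its CAST scores were also higher than those of D1 there. Rex1 minus RexTrim at the 5 genes from Adam26b to Gm5347 was 0.219 to 0.795, none called, and all 5 turned negative after quantile normalization (-0.695 to -0.0817). Of these genes, Adam34l, Adam34 and Gm5347 lost the svim minus CAST call without D1 (adjusted p = 0.0529, 0.0529 and 0.0608) and without E3 (0.120, 0.136 and 0.140). Adam26a lost it without E3 (0.0568), and Adam26b kept it in every fit run.

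The calls at the genes on the left also depended on single clones. Without D1 the adjusted p was 0.0730 at Triml1, 0.0730 at Triml2 and 0.0608 at Zfp42. Without E3 it was 0.187 at Triml1 and 0.159 at Triml2, while Zfp42 kept its call. After quantile normalization the adjusted p was 0.0898 at Triml1 and 0.0953 at Triml2.

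**Figure D5:**
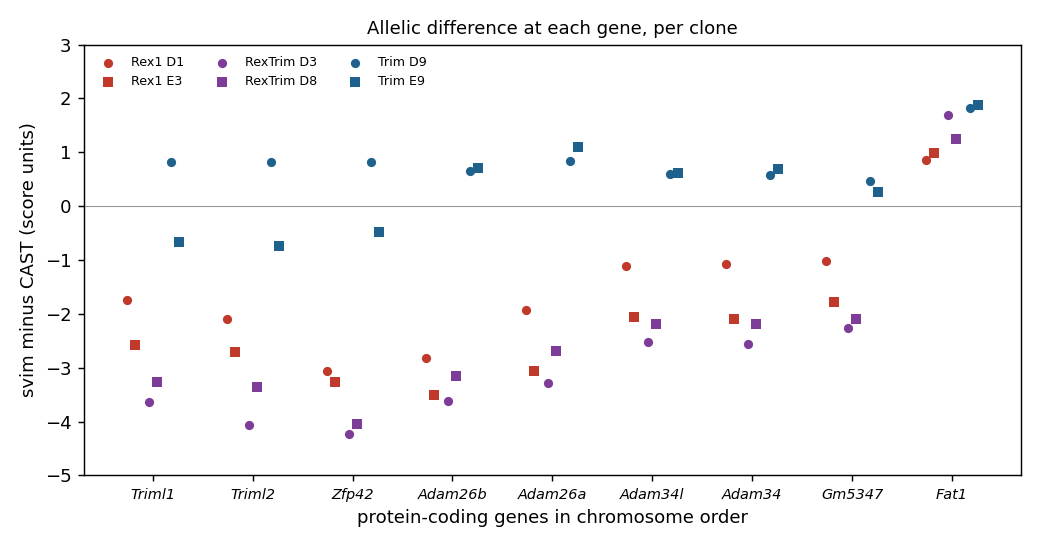
Svim minus CAST (y axis, score units) at the 9 protein-coding genes that overlap 42-45 Mb, in chromosome order, for the 2 Rex1, 2 RexTrim and 2 Trim clones. From Triml1 to Gm5347 both Rex1 clones lie below 0 and below both Trim clones, and at Fat1 all 6 clones lie above 0.

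Away from the cluster the copies of the Rex1 clones were closer or turned the other way. Fat1, a large atypical cadherin gene whose start lies 1600.8 kb to the right of the deletion, was earlier on svim, with 0.852 in D1 and 0.982 in E3 (adjusted p = 0.0220). It was earlier on svim in the other clones too, at 1.69 and 1.24 in RexTrim D3 and D8 and at 1.82 and 1.88 in Trim D9 and E9. Its call was lost without D1 (adjusted p = 0.150) and without E3 (0.214). Of the 9 genes listed on that side from Fat1 to Pdlim3, 6 were called earlier on svim and 1 later, with a median of 0.976. Over all genes of the chromosome the shares were 5.09% earlier and 6.06% later. The highest was F11, coagulation factor XI, at 1.28 in D1 and 1.49 in E3. The lowest was Pdlim3, a muscle LIM protein gene, at -1.16 in D1 and -0.984 in E3. Both genes had the same sign in the other clones. F11 was at 1.48 and 1.92 in RexTrim D3 and D8 and at 1.44 and 2.60 in Trim D9 and E9. Pdlim3 was at -0.875 and -0.335 in RexTrim D3 and D8 and at -0.590 and -1.44 in Trim D9 and E9.

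On the left, 12 genes from Micu3 to Frg1 had a median of 0.0697, between -0.735 at Slc7a2 and 0.308 at Micu3, and only Pdgfrl was called (-0.689, later on svim). Across the chromosome, 4 of 14 ADAM genes were called later on svim, against 6.06% of all genes, and the median of the 14 was -0.474. All 4 lay in the cluster beside Zfp42. Adam34 lies inside the span of Adam34l, so these calls share positions and are not all separate. None of 5 genes listed as late controls was called, with differences between -0.0690 at Tusc3 and 0.206 at Msr1. Their svim scores were lowest at Csmd1 (-2.45 in D1, -2.75 in E3) and highest at Dlc1 (1.05 in D1, 1.47 in E3), which was not late. None of 9 genes around Calr and Junb, housekeeping and erythroid genes that were early on both copies, was called, with differences between 0.0808 and 0.329. None of the genes in these lists outside 42-45 Mb was called between Rex1 and Trim or between Rex1 and RexTrim.

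Over the whole chromosome the copies were nearly level, with a mean svim minus CAST of -0.0441 in D1 and 0.0136 in E3. The standard deviation over positions was 0.657 in D1 and 0.682 in E3. Differences between the copies were nonetheless frequent, and 341 of 2521 windows (13.5%) were called in the Rex1 clones, 182 later and 159 earlier on svim. That count was 100 without E3 and 141 without D1. Over the 2462 windows outside 42-45 Mb the differences of D1 and E3 correlated at 0.67, across windows that share each clone's libraries and are not independent. Their correlations with the RexTrim clones ranged from 0.57 to 0.69.

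Among called windows more than 2 Mb from the deletion, the 3 lowest and 3 highest had the same sign in all 6 clones. The 3 lowest were chr8:92050001-92100000 (-2.85 in D1, -1.97 in E3), the window before it, and chr8:4700001-4750000 in Shcbp1 (-2.47 in D1, -2.03 in E3). At the Shcbp1 window the difference was -1.66 and -1.30 in RexTrim D3 and D8 and -1.92 and -1.96 in Trim D9 and E9. The 3 highest were chr8:116450001-116500000 (3.09 in D1, 2.73 in E3), the window before it, and chr8:15100001-15150000 in Myom2, a sarcomere protein gene (2.81 in D1, 2.59 in E3). At the first of these the difference was 1.62 and 1.67 in RexTrim D3 and D8 and 2.32 and 2.07 in Trim D9 and E9. In these 6 windows the sign was shared by clones with and without the Rex1 deletion. The run at the deletion was made of windows called later on svim in the Rex1 clones. The values of the Rex1 clones there were thus set by that choice and are no support. In its 19 windows, svim minus CAST was below 0 in 19 in both RexTrim clones, in 1 in Trim D9 and in 10 in Trim E9. The 19 windows had medians of -1.29 in Rex1 D1 and -2.43 in Rex1 E3, the clones by which they were picked. Their medians were -2.89 in RexTrim D3, -2.65 in RexTrim D8, 0.508 in Trim D9 and -0.0450 in Trim E9.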

How the data were processed

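The table holds replication timing scores for both copies of chromosome 8 in 6 clones at 25880 positions. Per the submitters' processing notes the reads were handled with Bowtie2, SAMtools and bedtools on mm10, and the name of the deposited table gives interquartile normalization. How early and late reads were combined, and whether a position is the start, centre or end of its bin, was not given in the sources used here. Scores were used as deposited. Positions inside either deletion or blank in any of the 12 columns were left out. Svim minus CAST was averaged per clone over 50 kb windows with at least 50% of their positions, over gene bodies (RefSeq GRCm38.p6) and over regions. It was fitted with limma 3.58.1 in R 4.3.3 (lmFit, eBayes, two-sided, 1 group per genotype), with p adjusted by Benjamini-Hochberg over all windows and regions or over all genes and a threshold of 0.05. The fit was also run on simulated data. The simulated windows were drawn independently, unlike the smooth profiles here, so that run cannot give the error rate in these data. Genes named are every protein-coding gene overlapping 42-45 Mb and extremes of listed genes, by difference or svim score. Pdgfrl was named after its values were seen. The members, lists and tests were chosen with earlier results of these data known. The samples of a genotype are named as clones, 2 each. The limma p-values rest on the spread between clones of a genotype, pooled over all genotypes and moderated across windows or genes by eBayes.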

Additional observations from a re-analysis of the deposited data

Results flagged for a closer look

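Rex1 and Trim clones differed in svim minus CAST beside the Rex1 deletion, and the difference itself was tested. It was -3.34 over the 100 kb on either side (adjusted p = 0.00273 in limma; 0.0925 without Rex1 E3 and 0.102 after quantile normalization), -3.96 in the window chr8:43400001-43450000 (adjusted p = 0.000231) and -3.84 at Adam26b (adjusted p = 0.0164). At 4 further genes both Rex1 clones were negative and both Trim clones positive, with Rex1 minus Trim of -3.46 at Adam26a, -2.18 at Adam34l, -2.22 at Adam34 and -1.77 at Gm5347. The tests of these differences did not pass (adjusted p = 0.0827, 0.163, 0.163 and 0.200). Adam34 and Gm5347 lie inside the span of Adam34l, so these genes share positions and are not separate observations. Both Rex1 clones lay below both Trim clones in 23.6% of all windows of the chromosome. The share of all genes with this pattern was not counted.

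Far from the locus, 3 windows also passed the test of Rex1 minus Trim. At chr8:15050001-15100000 in Myom2 the difference was 1.56 (adjusted p = 0.0490), with 2.31 and 2.42 in Rex1 D1 and E3 against 1.02 and 0.583 in Trim D9 and E9. At chr8:116200001-116250000 it was -1.69 (adjusted p = 0.0394), with 1.37 and 1.16 in Rex1 D1 and E3 against 2.97 and 2.95 in Trim D9 and E9. In the next window it was -1.75 (adjusted p = 0.0394). In all 3 windows svim was earlier than CAST in every clone, and the genotypes differed in how much.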

How the results depend on the processing

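No paired analysis was possible because the labels of the chromosome 8 samples give clone names only, with no number, batch or day that ties a clone of one genotype to a clone of another. The svim minus CAST difference beside the deletion kept its direction and call in every alternative, between -3.27 and -2.64. Leaving out 1 clone at a time gave -0.746 to -0.691 over 42-45 Mb and -3.87 to -2.80 for Rex1 minus Trim beside the deletion. It gave 100 to 445 windows and 11 to 393 genes called on svim minus CAST, 5 to 62 windows called between Rex1 and Trim, and 350 to 1000 kb in the run at the deletion. The 11 genes were those without Rex1 D1. Without Rex1 E3 there were 44, and without RexTrim D3 or D8 176, against 265 with all clones. After quantile normalization, Rex1 minus Trim beside the deletion was -2.86 and lost its call (adjusted p = 0.102), with 7 windows called, and 175 genes were called on svim minus CAST. With only the Rex1 and Trim clones in the fit, 5 windows were called between them. Rex1 minus RexTrim, called at no gene, changed sign after quantile normalization at Adam26b (-0.695), Adam26a (-0.397), Adam34l (-0.0895), Adam34 (-0.0941) and Gm5347 (-0.0817). Leaving out 1 clone gave -0.133 to 0.570 at Adam26b, negative without Rex1 D1 and without RexTrim D3 (-0.0143). At Adam26a it gave -0.0748 to 1.05, negative without Rex1 D1. The cause of these shifts was not tested. Depth is unknown, and with 2 clones per genotype an exact permutation test cannot go below p = 0.333. Where a fit left 1 clone in a genotype, that clone was assumed to vary like the others.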

Other observations

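The Rex1 clones differed from each other by at least 2 in svim minus CAST in 16 of 2521 windows (0.635%), in 2 stretches singled out after their values were seen. The first, chr8:21350001-21700000, holds a cluster of alpha-defensin genes such as Defa2, Defa17 and Defa20, which encode antimicrobial peptides of the gut. At chr8:21550001-21600000 the difference was 2.83 in D1 and -0.438 in E3, with svim at -1.15 in D1 and -1.53 in E3 and CAST at -3.98 in D1 and -1.09 in E3. The copies of the RexTrim and Trim clones also disagreed there, at -1.58 and 0.447 in RexTrim D3 and D8 and -2.95 and -0.484 in Trim D9 and E9. The defensins are closely similar genes, and how reads were placed among them was not tested. The second stretch, chr8:20400001-20850000, reached 0.412 in D1 and 2.66 in E3. In the same window the other clones had 1.88 and 1.56 in RexTrim D3 and D8 and -4.43 and 2.09 in Trim D9 and E9. Within 42-45 Mb the largest gap between the Rex1 clones was 1.16.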
